A study of Mus musculus with 2 samples.

Results

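The 10 core genes of the circadian clock were followed through endoplasmic reticulum stress in NIH3T3 cells, a mouse fibroblast line. The genes were Arntl, Clock, Per1, Per2, Per3, Cry1, Cry2, Nr1d1, Nr1d2 and Dbp, out of 18181 coding genes with a usable spot. The choice was made by name, with earlier results of these data known. The 10 genes were read by 18 probes, each printed as 1 spot. Control cells were untreated and grown in 10% serum, and stressed cells were the same line kept for 3 h in 10 µM thapsigargin, which blocks the pump that fills the endoplasmic reticulum with calcium. RNA was separated on a sucrose gradient of 10 to 40% into polysomes (P, labelled with Cy3) and free RNA plus monosomes (FM, labelled with Cy5), and each of the 2 conditions was represented by 1 array, hybridised with a pool of 3 preparations. With a single array per condition, differences are given as values without a test.

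The clock is a loop of transcription and translation that runs in nearly every mammalian cell, fibroblasts included. ARNTL and CLOCK form a dimer that binds E-boxes and switches on the Per and Cry genes, whose proteins then accumulate and repress that dimer. NR1D1 and NR1D2, the REV-ERB nuclear receptors, form a further arm of the loop by repressing Arntl, and DBP is a bZIP activator whose rhythmic gene is an output of the clock. The cultures are not described as synchronised, so the cells of a plate can stand at different phases, and bulk RNA cannot tell more mRNA per cell from more cells that hold it.

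The probes that carry the results below are shown by the first 30 bases of their sequence, as the array files list it, with positions on mm9. The first set holds the single probes of Per1, Nr1d2 and Dbp, which had the largest changes in log2 P/FM among the clock genes well above background at every probe. The Per1 probe lies at chr11:68922878-68922937 on the plus strand, the Nr1d2 probe at chr14:19037253-19037312 on the minus strand and the Dbp probe at chr7:52965265-52965324 on the plus strand.
Per1: gcttacagcagtctaatgagaggcttcctt
Nr1d2: ccagaactgttagtattgcttgtgatgctt
Dbp: tgccagggcagagtcctgttccttgctcag

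The second set holds genes whose probes gave different values, so that a reader can see which part of the transcript each value comes from. All lie on the minus strand. Clock was read at chr5:76664578-76664637 (probe 1, designed on the cDNA AK030352), and, for its coding accession NM_007715, at chr5:76683410-76683469 (probe 2), chr5:76641773-76641832 (probe 3) and chr5:76641377-76641436 (probe 4). The Clock probes 2, 3 and 4 begin at transcript positions 755, 6847 and 7243 in the array file. Nr1d1 was read at positions 62, 582 and 1919 of its transcript, the last by a probe whose 60 bases span 503 bases of genome and so cross an intron. Cry2 was read at positions 887 and 3382, the first by a probe that spans 2266 bases of genome.
Clock probe 1: tggtggacccttactagaaagaatcacaga
Clock probe 2: tagcgatcatgacagatggaagtataatat
Clock probe 3: ccgtttttaaaggatccctaatcatcactt
Clock probe 4: ttcccatttgagttgctcttgtaatatttt
Nr1d1 probe 1: tggtgcctcatttctccatcacctacttac
Nr1d1 probe 2: agtccctctacagtgacagctccaatggca
Nr1d1 probe 3: ggcacctttgaggtgctgatggtgcgcttt
Cry2 probe 1: gcctcttctactaccgcctgtgggacttgt
Cry2 probe 2: catcattctgactagaagcatcctatgatt

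Each probe gave 4 signals, P and FM on both arrays, in arbitrary units after subtraction of the local background. The log2 ratio of P to FM (log2 P/FM) measures how strongly an mRNA is associated with polysomes, and A, the average over the P and FM channels on the log2 scale, measures its relative abundance. Between 42.5% and 46.3% of the spots were well above background in each channel by the flag of the scanner software, and no spot was saturated. Of the 18 clock probes, 9 were well above background in all 4 signals, and these read 7 genes, Arntl, Clock, Per1, Cry2, Nr1d1, Nr1d2 and Dbp. The same 7 genes had A above 4.5 on both arrays, the filter applied to all 18743 coding mRNAs, which 10033 passed. The arrays carried the marks of the treatment and of the cell type. log2 P/FM of Atf4, the transcription factor whose translation is relieved when eIF2 is phosphorylated, changed by 3.42, and A of the stress genes Ddit3 and Hspa5 changed by 3.71 and 1.96. All 10 fibroblast markers had A above 4.5 on both arrays, against 0 of 5 epithelial, 0 of 3 endothelial and 0 of 3 muscle markers, 2 of 4 blood markers (Cd68 and Cd3e) and 1 of 3 neuronal markers (Tubb3).

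The spread among probes of one mRNA is the nearest thing to an error that the arrays hold, and it does not cover the spread between preparations. Over 3412 mRNAs with several probes, the median SD between probes was 0.32 for the change in log2 P/FM and 0.18 for the change in A. A pair of probes of one mRNA differed by 0.41 in the median and by 1.83 at the 95th percentile for log2 P/FM, and by 0.23 and 0.85 for A.

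**Figure D1:**
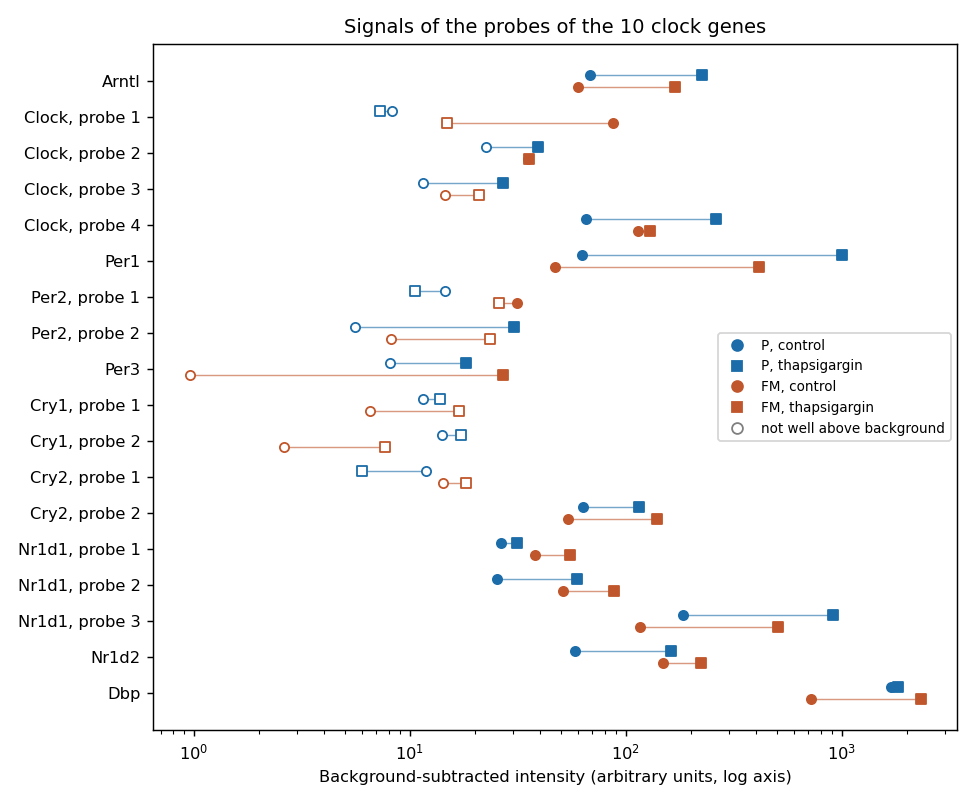
Background-subtracted intensity (arbitrary units, log axis) of P (blue) and FM (orange) for the 18 probes of the 10 clock genes, on the control array (circles) and the thapsigargin array (squares), 1 spot each. Open symbols were not well above background; both Cry1 probes and Cry2 probe 1 are open throughout, and the Per1 signals run from 47.0 to 1003.

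Stress was accompanied by higher levels of most measured clock mRNAs, above all Per1. Relative to the median mRNA, 5 of the 7 also shifted towards polysomes, with Dbp, read by 1 spot, as the clearest exception. Changes in A over the 7 measured genes were 0.40 to 3.57 with a median of 1.03, while the median over all 10033 coding mRNAs was 0.37. All 7 were thus higher in A with thapsigargin, as were 76.8% of all coding mRNAs. Normexp background correction, which moved the median of all mRNAs to -1.48, turned that direction for 5 of the 7, leaving Per1 and Dbp higher. A was higher by 1 or more for 4 of the 7 (Per1, Arntl, Nr1d1 and Nr1d2), beside 11.7% of all coding mRNAs. The median change in log2 P/FM was 0.23 over the 7 genes and -0.71 over all mRNAs. Clock, Nr1d2, Per1, Arntl and Nr1d1 had higher log2 P/FM in stress by 0.11 to 1.11, whereas Cry2 and Dbp had lower values, by -0.93 and -1.57. Of all mRNAs, 29.3% were higher in stress.

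Because the scaling sets where 0 lies, each clock gene was also placed against the median change of all mRNAs. Scaling to the 10 spike-in probes moved the median of all mRNAs from -0.71 to 1.73, and under that scaling all 7 clock genes were higher in stress, Dbp by 0.87 and Cry2 by 1.52. Relative to the median, Per1 stood 1.57 higher without normalization, and 0.97 to 1.69 higher under all 16 alternatives that gave a value for it. Arntl, Clock, Nr1d1 and Nr1d2 likewise lay above the median of all mRNAs under every alternative run, by at least 0.22, 0.55, 0.12 and 0.06. Dbp lay below it under all 17 alternatives, by -0.15 to -1.60. Only Cry2 changed sides, at -0.21 without normalization and between -0.70 and 0.19 under the alternatives. The median of all mRNAs itself varied with signal, at -0.83 with A above 5.5 and -1.10 with A above 7. In control A, Dbp stood at percentile 85.1 and the other measured clock genes between 5.24 and 36.0. Loess within each array lowered the median of the 7 relative to all mRNAs from 0.95 to 0.42. The part played by signal level was not tested.

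**Figure D2:**
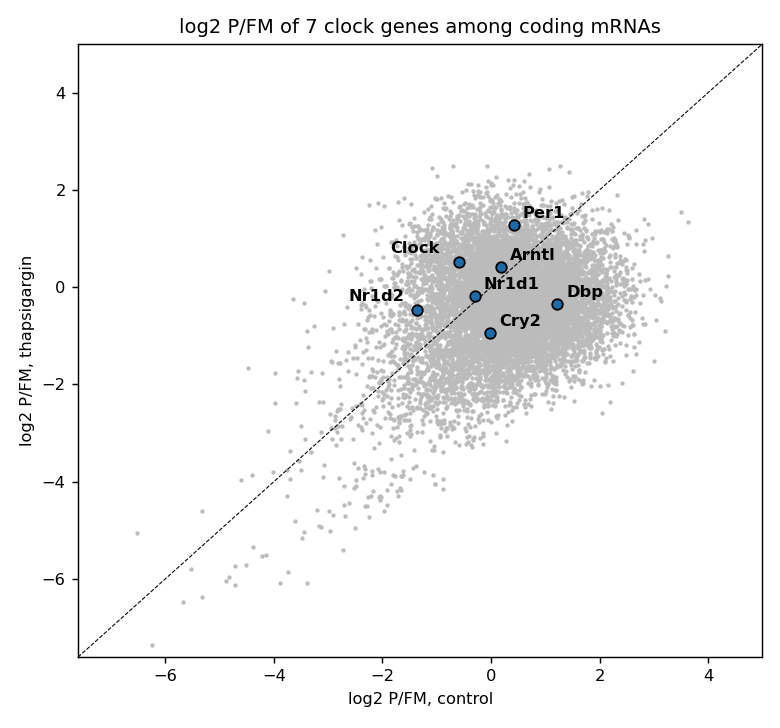
log2 P/FM on the control array (x axis) and on the thapsigargin array (y axis), without normalization, for 10033 coding mRNAs (grey) and 7 clock genes (blue, 1 value per gene averaged over its probes). The dashed line marks equal values; Clock, Nr1d2, Per1, Arntl and Nr1d1 lie above it, and Cry2 and Dbp below it, although all 7 lie above it after scaling to the spike-in probes.

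The activators of the loop differed in what changed. Arntl encodes the bHLH-PAS protein BMAL1, without which the clock stops. Its single probe, at chr7:120456978-120457037, read 68.4 in P and 60.3 in FM in control cells, and 225 in P and 168 in FM in stressed cells. Both fractions were thus higher to a similar degree, 3.28-fold in P and 2.79-fold in FM. A changed by 1.60, higher than 98.4% of all coding mRNAs, and log2 P/FM went from 0.18 to 0.42. The change in log2 P/FM of 0.23 was smaller than the SD between probes and was -0.06 with the signals or log ratio processed by Feature Extraction.

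Clock, which encodes the partner of ARNTL, was the gene with the highest change in log2 P/FM, from -0.60 to 0.51 averaged over the 3 probes of its coding accession. It was the 1 inducible gene of the 7, the class with a control value of 0 or lower and a rise of 1 or more, beside 8.86% of all coding mRNAs, and also the 1 gene higher by 1 or more in log2 P/FM, beside 9.90%. Only probe 4 was well above background throughout. It read 65.3 in P and 115 in FM in control cells, and 261 in P and 130 in FM in stressed cells. P was 3.999-fold higher, whereas FM was 1.13-fold higher, and log2 P/FM went from -0.81 to 1.01. Probe 2 read 22.5 in P, which was not well above background, and 35.2 in FM in control cells, and then 39.4 and 35.6. Its computed change in log2 P/FM was 0.79, uncertain in size because of that control P signal. FM at probe 2 was again nearly level between the arrays. Probe 3 read 11.5 in P and 14.6 in FM in control cells, and 27.0 and 20.9 in stressed cells, with P in stress the 1 signal well above background. Probe 3 therefore gives no measured change, although it enters the average. The inducible call was lost with normexp, where the change of Clock was 0.89, and without background subtraction, where it was 0.68.

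The probe on the Clock cDNA AK030352 behaved differently. It read 8.25 in P and 87.4 in FM in control cells, and 7.25 and 14.9 in stressed cells, with the control FM signal alone well above background. FM was thus lower in stress where Clock probes 2 and 4 had it level or slightly higher. With this probe averaged in, log2 P/FM of Clock was -1.30 in control cells and 0.12 in stress. Which transcripts it reads was not tested.

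Among the repressors, Per1 carried the largest change in level. Per1 encodes a PERIOD protein of the repressor complex, and its gene is known to respond quickly to many signals that reset the clock. Its probe read 62.8 in P and 47.0 in FM in control cells, and 1003 in P and 413 in FM in stressed cells. Both fractions were higher, P by 15.97-fold and FM by 8.79-fold. The change in A of 3.57 was the 9th highest of 10033 coding mRNAs, and it was between 1.28 and 3.86 under all 12 alternatives. log2 P/FM went from 0.42, close to the middle of the control distribution (percentile 54.0), to 1.28, higher than 96.6% of the mRNAs measured in stress. Its change in log2 P/FM of 0.86 was higher than 88.2% of the mRNAs, but it is within the 1.83 that separates probe pairs at the 95th percentile. Per1 was not counted as inducible, since its control value was above 0, nor as resistant, which asks for 0.8 or more on both arrays. No clock gene was resistant, beside 3.00% of all coding mRNAs.

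The other Per genes could not be followed in the same way. Per2 probe 1 read 14.5 in P and 31.4 in FM in control cells, and 10.6 and 25.8 in stressed cells, with the control FM signal alone well above background. Per2 probe 2 read 5.59 and 8.21 in control cells, and 30.2 and 23.5 in stressed cells, with P in stress alone well above background. Their changes in A, -0.37 and 1.98, had opposite signs and give no common value for Per2. The Per3 probe read 8.12 in P and 0.955 in FM in control cells, neither well above background, and 18.3 and 26.9 in stressed cells, both well above it. Per3 was therefore detected in stress alone, and its control ratio has no measured value. A of Per2 and Per3 was 4.39 and 4.47 in stressed cells, just under the filter.

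Of the cryptochromes, which join the PERIOD proteins in the repressor complex, only Cry2 was measured, and by its probe 2 alone. Neither Cry1 probe was well above background in any signal. They read 11.5 and 14.1 in P and 6.52 and 2.62 in FM in control cells, and 13.8 and 17.3 in P and 16.8 and 7.68 in FM in stressed cells. Cry1 was thus not measured on either array. Cry2 probe 2 was well above background throughout and read 63.5 in P and 53.8 in FM in control cells, and 115 and 140 in stressed cells. FM was 2.60-fold and P 1.81-fold higher, so that log2 P/FM went from 0.24 to -0.29, a change of -0.52. Cry2 probe 1 read 11.9 in P and 14.2 in FM in control cells, and 6.03 and 18.2 in stressed cells, none of them well above background. Its average with probe 2 gave the -0.93 of Cry2 and with it the sensitive call, which asks for -0.8 or lower. From probe 2 alone Cry2 was not sensitive.

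The REV-ERB receptors were both higher in level. Nr1d1 probe 1 read 26.3 in P and 38.2 in FM in control cells, and 31.3 and 55.0 in stressed cells. Probe 2 read 25.2 and 51.3 in control cells, and 59.3 and 88.6 in stressed cells. Probe 3 read 185 and 116 in control cells, and 914 and 508 in stressed cells. All 3 probes were higher in both fractions, but by very different amounts, from 1.19-fold in P at probe 1 to 4.95-fold at probe 3. Their changes in A were 0.39, 1.01 and 2.22 from the start to the end of the transcript, a range of 1.83 that exceeds the 0.85 by which probe pairs differ at the 95th percentile. The mean change of 1.21 is thus uncertain in size. The changes in log2 P/FM were -0.28, 0.44 and 0.18, with a mean of 0.11, and so without a common direction.

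Nr1d2 had the lowest log2 P/FM of the 7 genes in control cells, -1.36, lower than all but 6.15% of the mRNAs. Its probe read 58.2 in P and 149 in FM in control cells, and 161 and 223 in stressed cells. P was 2.77-fold and FM 1.498-fold higher. log2 P/FM therefore reached -0.47 in stress, a change of 0.89, which is higher than 88.6% of the mRNAs. The change is within the 1.83 that separates probe pairs at the 95th percentile. Since that change was less than 1, Nr1d2 was not inducible without normalization. A changed by 1.03.

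Dbp, the output gene, went the other way in its distribution. It had the brightest signals of the clock genes on these arrays and the highest control log2 P/FM of the 7, 1.22 (percentile 83.0). Its probe read 1688 in P and 724 in FM in control cells, and 1826 and 2330 in stressed cells. Without normalization, P was 1.08-fold higher while FM was 3.22-fold higher, so that most of the added signal was in the FM fraction. log2 P/FM went to -0.35, a change of -1.57, and Dbp was sensitive, beside 47.0% of all coding mRNAs, and the 1 clock gene lower by 1 or more, beside 40.8%. The change lies lower than the median of all mRNAs but is not extreme, with 23.4% of the mRNAs lower still. Its size is within the 1.83 that separates probe pairs at the 95th percentile. The change was -0.36 after loess and -0.45 with the log ratio of Feature Extraction, where Dbp is no longer sensitive. After scaling to the spike-in probes it was 0.87, so which fraction gained more depends on the scaling.

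**Figure D3:**
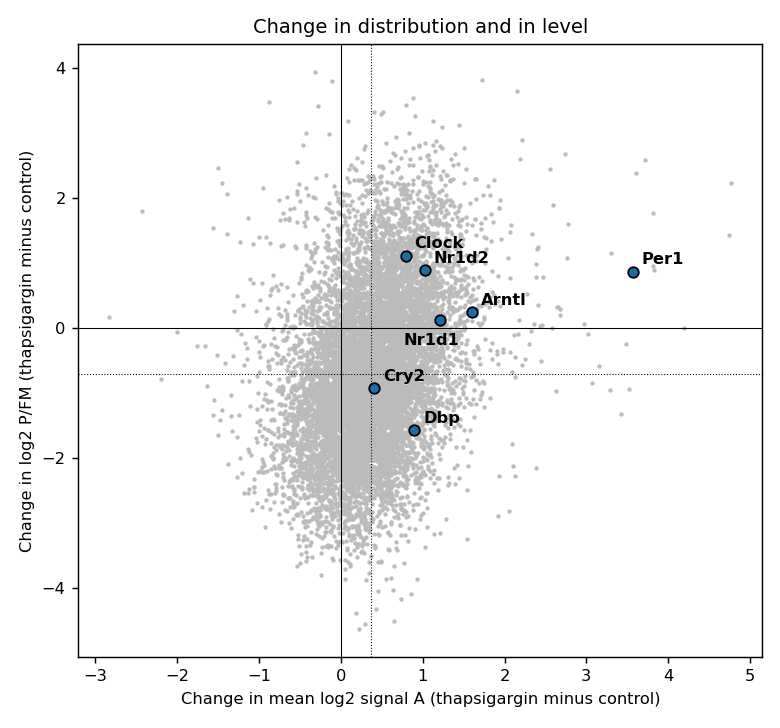
Change in A (x axis) and change in log2 P/FM (y axis), thapsigargin minus control without normalization, for 10033 coding mRNAs (grey) and 7 clock genes (blue). Dotted lines mark the medians of all mRNAs, 0.37 and -0.71. All 7 genes lie at positive changes in A, as do 76.8% of all mRNAs (5 of the 7 lie at negative changes after normexp correction). Per1 stands apart at 3.57.

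The separate fractions show the contrast in another way. Over all coding mRNAs the median change was 0.02 in log2 P and 0.72 in log2 FM, without normalization. Scaling to the spike-in probes turns that pattern, to 1.53 in log2 P and -0.22 in log2 FM, so the values of the clock genes are read here only against those medians. In log2 P, Per1 changed by 3.997, Arntl by 1.72, Nr1d2 by 1.47, Clock by 1.34 and Nr1d1 by 1.26, all above that median, while Dbp changed by 0.11. Cry2 changed by 0.85 at its measured probe, and its average of -0.06 takes in the probe at background. In log2 FM, Per1 changed by 3.14, Dbp by 1.69, Arntl by 1.48, Nr1d1 by 1.15 and the measured probe of Cry2 by 1.38, and Nr1d2 and Clock by 0.58 and 0.24, less than the median mRNA. With Cry2 taken from its measured probe, Dbp was the clock gene closest to the median mRNA in its polysome signal, and Clock and Nr1d2 were the pair below the median in the free and monosome signal.

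For the 3 genes with the largest changes in log2 P/FM among those well above background at every probe, the mRNAs with the most similar 4 signals were sought among 8190 other coding mRNAs by Euclidean distance of the log2 signals. Nearest to Dbp were Bag5, Lsm8 and Vdac2, at distances of 0.18, 0.19 and 0.27. Nearest to Nr1d2 were Zbtb48, Sos2 and Zmym5, at 0.21, 0.24 and 0.32. Per1 had no such close match, with Birc3, Lpin1 and Tnfaip3 at 1.12, 1.36 and 1.42. Birc3, Lpin1 and Tnfaip3 were higher in A by 2.98, 2.66 and 3.83.

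Genes around the core loop were read from a list of 64 genes with 66 coding accessions on the array, of which 54 passed the filter on A. Their median change in log2 P/FM was -0.53 and in A 0.60. Of the 54, 20 (37.04%) were sensitive, against 47.0% of all coding mRNAs. The 4 inducible (7.41%) and 2 resistant (3.70%) were close to the 8.86% and 3.00% of all coding mRNAs, and 13 (24.1%) were higher by 1 or more in A, against 11.7%. The inducible ones were Ddx5, Sfpq, Ppargc1a and Gsk3b. The alternative partners of CLOCK and ARNTL, Arntl2 and Npas2, did not pass the filter, nor did the activating receptor Rora, whose A went from 3.50 to 4.86, or the E-box repressor Bhlhe41.

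Among other E-box and D-box factors, Bhlhe40, Nfil3 and Hlf gained in level. Bhlhe40, Nfil3, Tef and Hlf had lower log2 P/FM in stress without normalization, as had 7093 of the 10033 coding mRNAs. Bhlhe40, a repressor that competes for E-boxes, was higher in A by 2.21, with a change in log2 P/FM of -0.58, near the median of all mRNAs. Nfil3, the bZIP repressor that opposes DBP at D-boxes, read 733 in P and 255 in FM in control cells, and 5131 and 3468 in stressed cells. Its A was higher by 3.29, close to that of Per1, but FM gained more than P and log2 P/FM changed by -0.96. The PAR bZIP relatives of Dbp also had lower log2 P/FM, Tef by -1.79 and Hlf by -0.79, the latter close to the median of all mRNAs, whereas A changed by -0.02 and 1.23. Not every probe signal of Tef was well above background, so its value is less certain. With 2.44 added, as scaling to the spike-in probes does, all 4 of these factors would be higher.

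The kinases and phosphatases that set the stability of PER and CRY were the group with the lowest changes. Of 16 mRNAs from 14 genes, 10 (62.5%) were sensitive, against 47.0% of all coding mRNAs, and the median change was -1.30. Control A in this group ran from 5.49 (Gsk3b) to 13.7 (Ppp1ca). Of all coding mRNAs with A above 7 on both arrays, 59.9% were sensitive, with a median change of -1.10. The part of signal level in the low values of the group was not tested. Ppp1ca, a catalytic subunit of protein phosphatase 1, was lowest at -3.21, from 1.61 to -1.60, whereas its sister Ppp1cb changed by 0.00117. Csnk2b, the regulatory subunit of casein kinase 2, changed by -2.16 and its catalytic subunits Csnk2a2 and Csnk2a1 by -1.67 and -0.48. The casein kinase 1 genes that phosphorylate PER changed by -1.82 (Csnk1a1), -1.42 (Csnk1e), and -1.17 and -1.62 (the Csnk1d transcripts). For Csnk1e, not every probe signal was well above background. Ppp5c and Gsk3a changed by -1.77 and -1.69. Gsk3b stood opposite to Gsk3a, at 1.17. After scaling to the spike-in probes, which adds 2.44 to each of these values, the list has negative values at Ppp1ca alone.

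The remaining groups were mixed. Of 9 mRNAs for ubiquitin ligases and proteases, 2 (22.2%) were sensitive, and the median change was -0.64. Of 17 mRNAs for chromatin and RNA partners, 6 (35.3%) were sensitive and 3 (17.6%) inducible, against 47.0% and 8.86% of all coding mRNAs. At the ends of that group, Hdac3, the deacetylase that works with the REV-ERB receptors, changed by -2.05 and Wdr5 by -1.69, and the coactivator Ppargc1a by 1.56. The paraspeckle proteins, which bind PER complexes, split, with Nono at -1.29 and Sfpq at 1.29. Of 7 outputs, 5 (71.4%) were higher by 1 or more in A, against 11.7% of all coding mRNAs, and 0 were sensitive. Nampt, listed both as an output and as a chromatin partner, was counted among the partners alone. It was sensitive, with a change in log2 P/FM of -0.97 and in A of 0.78.

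**Figure D4:**
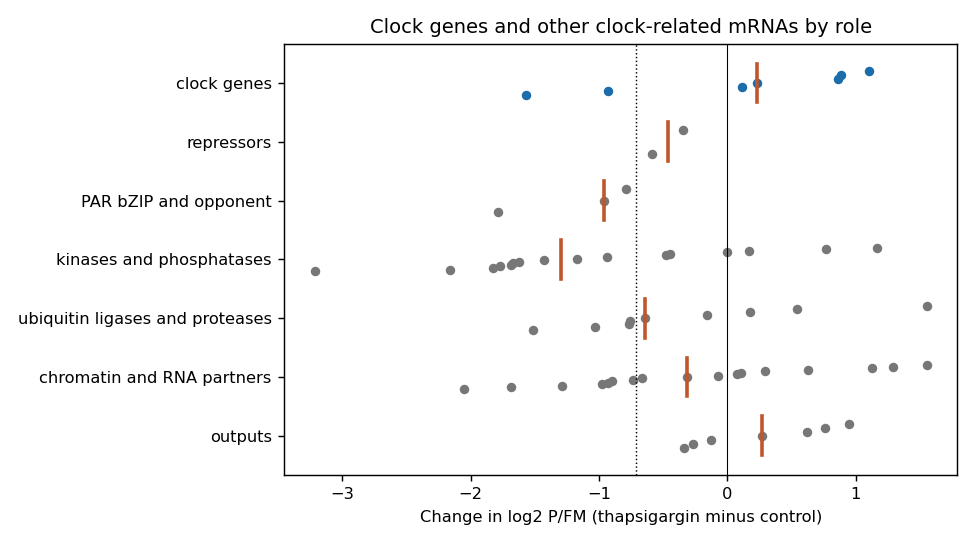
Change in log2 P/FM (thapsigargin minus control, without normalization) for 7 clock genes (blue) and 54 other clock-related mRNAs (grey) by role; each point is 1 mRNA, orange bars are medians, and the dotted line is the median of all coding mRNAs, -0.71. The clock genes have a median of 0.23 and the kinases and phosphatases one of -1.30.

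Promoters of the clock genes were read from RefSeq on GRCm38.p6, where 13 windows for 9 of the genes were matched. The 250 bases before each start site were searched on both strands for the E-box CACGTG, the D-boxes TTACGTAA and TTATGTAA, the REV-ERB and ROR elements TAGGTCA and TGGGTCA, and the cyclic AMP response element TGACGTCA. An E-box was found in the windows of Per1 and Cry1, against 6.02% of all promoters. The Per3 window held the D-box TTATGTAA at -205 and -158, against 0.931% of all promoters with a D-box. Neither of the other motifs was found in a clock gene window, against 5.38% of all promoters for the REV-ERB and ROR elements and 1.55% for the cyclic AMP response element. The E-boxes are shown in capitals with their flanks, since Per1 is the gene with the largest change in level and Cry1, with the same motif, was not measured. The Per1 site begins at -166 from one of the start sites, within chr11:69098771-69098800 on the plus strand, and the Cry1 site at -60, within chr10:85185097-85185126 on the minus strand.
Per1 E-box: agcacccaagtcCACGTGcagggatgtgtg
Cry1 E-box: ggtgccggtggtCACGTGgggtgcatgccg

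**Figure D5:**
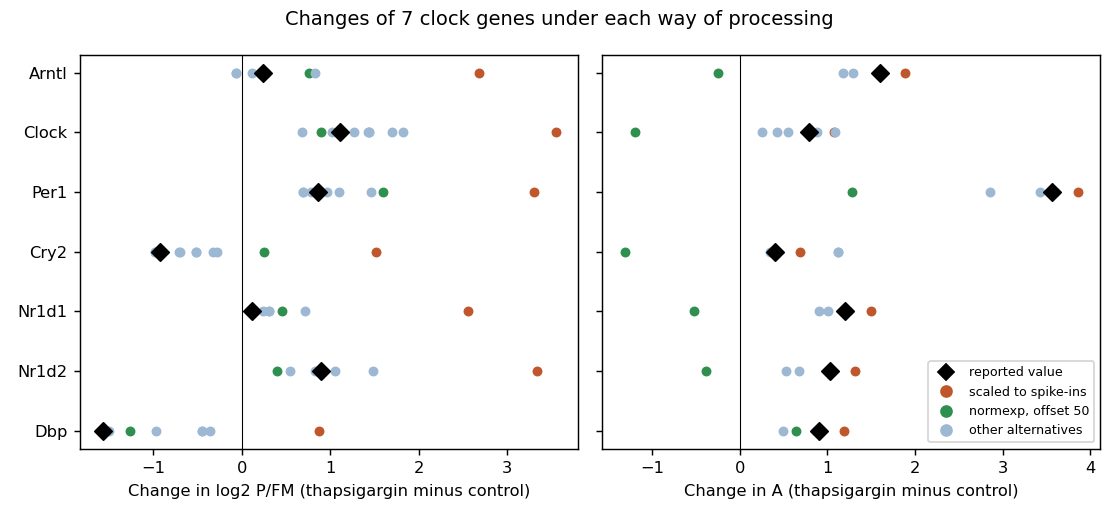
Change in log2 P/FM (left) and in A (right), thapsigargin minus control, of 7 clock genes without normalization (black diamonds) and under each alternative way of processing (circles). Scaling to the spike-in probes puts all 7 genes above 0 on the left, and normexp correction puts 5 of them below 0 on the right, while Per1 stays above 0 on both sides under every alternative.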

How the data were processed

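The members and gene lists were chosen with earlier results of these data known. Per the file headers, the authors' spot and background intensity values came from Feature Extraction 10.7.1.1, unnormalized. The deposited files also hold processed intensity values and the log10 ratio Cy5/Cy3. A table of unnormalized log2 values (Cy3/Cy5) by the authors equalled the mean over spots computed here within 0.001 for over 99.9% of coding accessions and held 8 of the clock genes. Per the labels, both fractions together were adjusted to 300 ng of RNA for labelling, so levels are relative to total RNA.

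Mean spot signals had their median local background removed, with a floor of 0.5, in limma 3.58.1, and 295 outlier spots were left out. Probes were averaged per coding accession, and A above 4.5 was required on both arrays for changes. Sensitive, inducible and resistant follow the thresholds of the study. With 1 array per condition no test was made. Named genes were the members, fixed clock regulators, treatment genes, up to 12 related mRNAs that changed by 1 or more, and the nearest mRNAs; 1 of the fixed regulators is not reported here. Related genes were matched by current RefSeq symbols, so the older array name first listed for Cipc, now Emc10, was not used. The steps were tested on simulated data. Alternatives changed the background correction, signal, normalization, scaling, filter on A, outlier rule and unit.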

Additional observations from a re-analysis of the deposited data

How the results depend on the processing

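Values rest on 1 array per condition and mostly on 1 spot per gene, at signals between 25.2 and 2330 for the probes well above background throughout. No paired analysis was possible because each group holds 1 array and no test was made. Protein lengths and identities were not run, and the log ratio, deposited table, loess and centring give no change in A.

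The median change in log2 P/FM of the clock genes was 0.23 and kept its sign under 16 of 17 alternatives, moving to 0.83 after centring, to 2.68 with spike-in scaling, and to -1.57 with A above 7, where Dbp alone remained. The median control log2 P/FM of -0.01 was 0.53 with processed signals or the log ratio, 0.25 after loess, 0.18 with A above 5.5, with every probe well above background or with only such probes averaged (a setting chosen after seeing the data), 1.22 with A above 7, 0.0848 with no filter, -0.52 with normexp and -0.32 after centring. The median control value thus has no settled sign. The median change in A of 1.03 was -0.86 with normexp, 0.55 without background subtraction, 1.32 with spike-in scaling, and 1.21 with A above 5.5 or with every probe well above background. Relative to all mRNAs it was 0.50 to 0.88 under all 13 alternatives, and that of log2 P/FM was 0.13 to 1.06 except for -0.47 with A above 7.

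The 2 sensitive genes became 1 with normexp, without background subtraction, with median signals, with processed signals or the log ratio, after centring, with A above 5.5 or 7, with every probe or only probes well above background, and with each probe as the unit. They became 0 after loess or spike-in scaling and 4 with no filter. The 1 inducible gene became 0 without background subtraction, with A above 5.5 or 7 and with every probe well above background, 2 with processed signals, loess or centring, and 4 with spike-in scaling, which also made 1 gene resistant. Of all mRNAs, 13.4%, 14.25%, 17.7% and 33.7% were inducible under these settings in that order, and 30.55% resistant with spike-in scaling. With normexp the count stayed 1, but the gene was Per1 (change 1.60) and not Clock (0.89). Higher by 1 or more in A were 1 gene with normexp, 2 without background subtraction, 0 with A above 7 and 7 probes with each probe as the unit. The cause of these differences was not tested.

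With normexp the change in A was -0.24 for Arntl, -0.53 for Nr1d1 and -0.39 for Nr1d2, that in log2 P/FM 0.25 for Cry2, and the medians of all mRNAs were -1.48 for A and 0.33 for log2 P/FM. With spike-in scaling the change in log2 P/FM was 1.52 for Cry2 and 0.87 for Dbp, the stress value of Cry2 was 1.505, and the median of all mRNAs was 1.73. The median stress log2 P/FM of the clock genes, -0.18, was 0.14 with processed signals or the log ratio, 2.26 with spike-in scaling, 0.13 with loess and 0.10 with centring. With processed signals the median change in A of all mRNAs was -0.0218.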
